A study of Mus musculus with 4 samples.

Results

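The Notch pathway was examined through 10 genes chosen by their role: the receptors Notch1, Notch2 and Notch3, the ligands Jag1, Jag2 and Dll4, the DNA-binding protein gene Rbpj, and the target genes Hes1, Hey1 and Heyl. All 10 were found, each as 1 row of that exact name with a value above 0 in every library, among 32868 gene names. A further 1 row has a name that differs from Notch1 only in letter case, and it was not used. The tissue was the tibialis anterior, the shin muscle that lifts the foot, of C57BL/6 mice at postnatal day 21. The Nf1-KO group had both alleles of Nf1 floxed (Nf1flox/flox/Myf5+) and the Het group had a single floxed allele (Nf1flox/+/Myf5+). The labels do not spell out Myf5+. In this kind of cross it stands for a Cre recombinase driven by Myf5, a gene of muscle precursor cells, and both groups carry it, so the controls also have a floxed allele that can be lost. Nf1 encodes neurofibromin, which switches off the GTPase Ras. There were 2 libraries per group. Nothing in the labels ties them to separate animals, so the p-values measure only the spread between these libraries, which may be technical.

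Notch receptors are single-pass membrane proteins that are switched on by ligands on a neighbouring cell. The ligand's pull exposes the receptor to cleavage by an ADAM protease and then by gamma-secretase, and the freed intracellular part enters the nucleus, where it binds RBPJ and turns that protein from a repressor into an activator of the Hes and Hey genes. In skeletal muscle this signal keeps satellite cells, the muscle stem cells, quiescent, and it also acts in endothelial cells and in the mural cells that wrap small vessels. HES1, HEY1 and HEYL are repressors of the basic helix-loop-helix class, and Heyl and Hey1 serve as readouts of Notch activity in satellite cells.

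Promoter sequence was taken from RefSeq (GRCm38.p6), where 7 of the 10 genes matched. The 3 receptors are shown because all had higher deposited values in both Nf1-KO libraries, and Rbpj because it was the only matched member with the core letters bound by RBPJ. That choice does not set the receptors apart, since Jag2, Hey1 and Rbpj were also higher by deposited values. Such values run higher in Nf1-KO (median log2 fold change of all genes tested 0.07 without scaling), and the scaled values of Notch1 overlapped. The stretches lie within the 250 bases before a RefSeq start site and leave out exons annotated by GENCODE. For Notch1 and Rbpj the start site used lies inside the gene as GENCODE bounds it, so other start sites exist upstream. Rbpj had 2 windows, of which 1 is shown. Capitals mark TGGGAA, the core of the RBPJ site. They also mark CACGCG and, in Notch3, its relative CACGAG. Proteins of the HES and HEY class bind these and also the E-box CACGTG. All were searched on both strands, and a match on the other strand reads as the reverse complement.
Notch1, chr2:26503825-26504072, minus strand: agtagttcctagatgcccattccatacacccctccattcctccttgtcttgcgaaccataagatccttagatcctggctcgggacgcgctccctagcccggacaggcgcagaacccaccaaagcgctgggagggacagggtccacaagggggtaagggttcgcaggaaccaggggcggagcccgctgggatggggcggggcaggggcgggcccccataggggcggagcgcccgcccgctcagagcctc
Notch2, chr3:98013288-98013526, plus strand: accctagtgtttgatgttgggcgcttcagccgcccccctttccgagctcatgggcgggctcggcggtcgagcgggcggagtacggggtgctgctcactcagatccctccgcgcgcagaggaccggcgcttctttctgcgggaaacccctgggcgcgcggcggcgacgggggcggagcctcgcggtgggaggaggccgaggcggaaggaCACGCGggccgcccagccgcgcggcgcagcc
Notch3, chr17:32166891-32167140, minus strand: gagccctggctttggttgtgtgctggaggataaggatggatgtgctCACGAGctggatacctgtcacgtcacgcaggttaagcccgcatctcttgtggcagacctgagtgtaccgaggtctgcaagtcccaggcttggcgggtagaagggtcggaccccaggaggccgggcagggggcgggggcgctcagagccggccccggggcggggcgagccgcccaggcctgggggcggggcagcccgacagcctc
Rbpj, chr5:53590096-53590213, plus strand: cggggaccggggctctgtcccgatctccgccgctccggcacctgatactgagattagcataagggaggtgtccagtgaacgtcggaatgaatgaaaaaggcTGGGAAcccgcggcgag
No TGGGAA lay in the window of a receptor or ligand gene. Both Rbpj windows held it, and in the window shown it lay 149 bases before that start site inside the gene. The same letters were found in 21.6% of all 32851 windows in the table. CACGCG lay 42 bases before the start site of Notch2, and also before those of Dll4 and Jag1. That is 3 of 8 member windows, against 7.62% of all windows, a difference that was not tested. The letters of CACGCG include C followed by G. This pair occurred 34 times in the stretch of Notch2 and 14 times in those of Dll4 and Jag1, where the median window had 6. CACGAG lay 204 bases before that of Notch3, against 5.37% of windows, and CACGTG was in no member's window, against 6.02%. The receptor stretches were rich in G and C, with 66.1% in Notch1, 74.1% in Notch2 and 68.8% in Notch3, where the median window had 52.4%. A match of letters is a description of the window and not a site.

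The authors deposited 1 value per gene and library, read here as RPKM (reads scaled by gene length and by library depth), which allows levels to be compared between genes. The depth was estimated from the steps of low values at 36600000 and 58100000 reads for the Het libraries, and at 47000000 and 51000000 reads for Nf1-KO. Changes were tested with limma on log2(RPKM + 1) after scaling the libraries to each other, with Benjamini-Hochberg adjustment of the p-values across all 10690 genes tested. Fold changes on this scale understate the change of low genes. Nf1 itself was 1.09 and 1.01 RPKM in Het and 0.89 and 0.85 RPKM in Nf1-KO, a small fall (log2 fold change -0.18, limma adjusted p 0.041). Its scaled level was 22.4% lower, and the authors' deposited table gave -0.38 with an adjusted p of 0.0026.

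Of the 10 Notch genes, 4 passed an adjusted p of 0.05, against 50.3% of all genes tested. Notch3 and Hey1 rose (24.9% of all genes passed as higher) and Hes1 and Heyl fell (25.4% passed as lower). Notch1, Notch2, Jag1, Jag2, Dll4 and Rbpj did not pass. The median log2 fold change of the 10 genes was 0.03, beside 0.00050 over all genes tested, and their median absolute log2 fold change was 0.12, beside 0.16. The share that passed was thus near the background, and the changes were small, with Hey1 at 0.35 as the widest. A larger absolute log2 fold change than that of Hey1 was found in 19.4% of all genes. By scaled values the 2 groups did not overlap in 7 of the 10 genes, against 76.3% of all genes. In 4 of them Nf1-KO was higher (Notch2, Notch3, Jag2 and Hey1; 38.2% of all genes) and in 3 lower (Jag1, Hes1 and Heyl; 38.1%). In whole muscle, fewer cells of a type and less RNA per cell cannot be told apart.

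**Figure D1:**
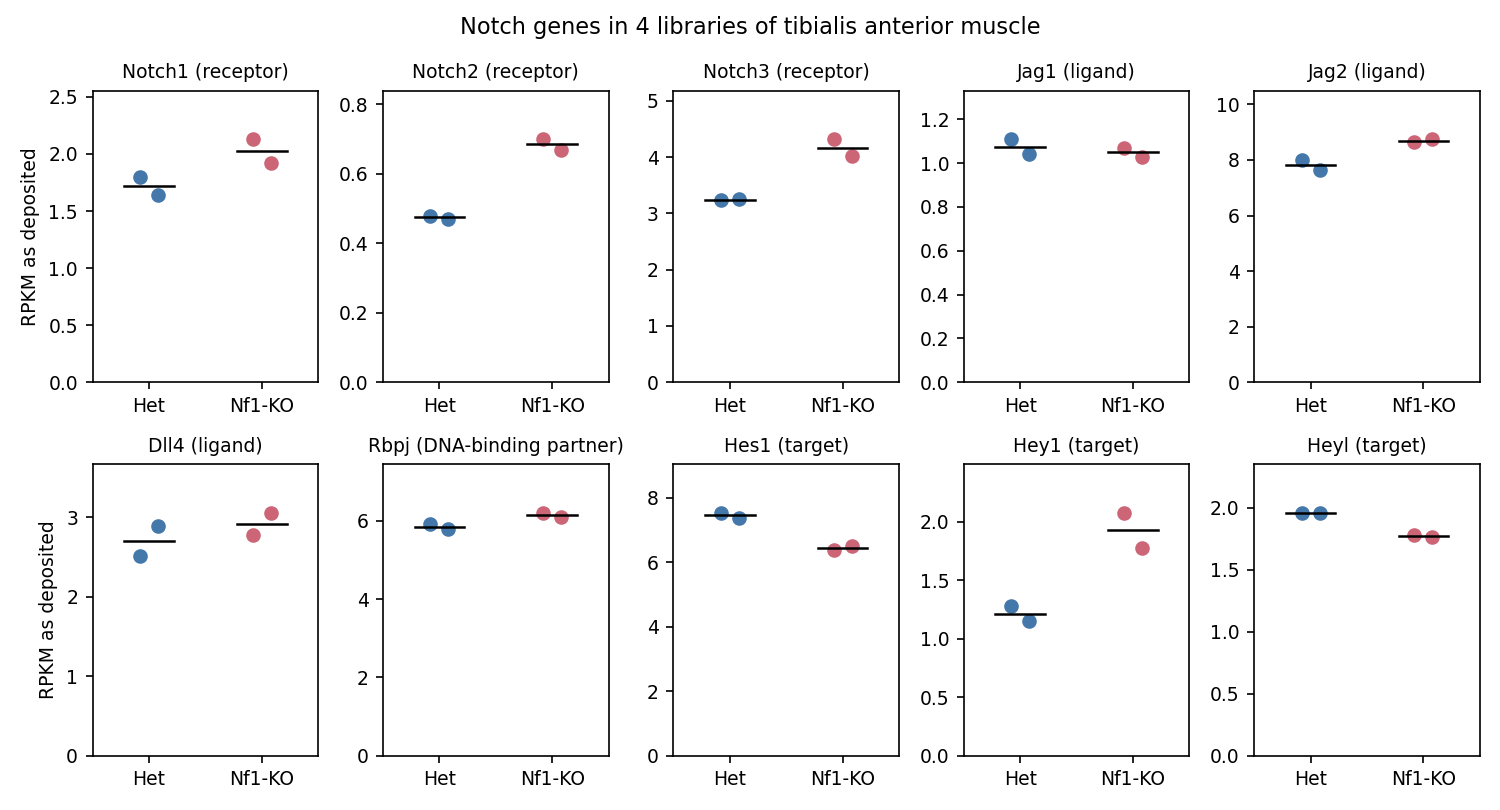
Deposited RPKM of the 10 Notch genes on a linear axis that starts at 0, with 1 point per library and a line at the mean of each group. Notch3 and Hey1 were higher and Hes1 and Heyl lower in both Nf1-KO libraries, while the points of Dll4 and Jag1 overlapped.

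In Het muscle the 10 genes ran, from highest to lowest level, as Jag2, Hes1, Rbpj, Notch3, Dll4, Heyl, Notch1, Hey1, Jag1 and Notch2. No neighbours in that order overlapped between libraries. In Nf1-KO muscle the same order held for the first 5 genes. Hey1 stood between Notch1 and Heyl there, by the mean and within each Nf1-KO library. Across libraries its range overlapped that of Notch1 and met that of Heyl at 1.78 RPKM, so it was not told apart from either by range. The ranges of Notch1 and Heyl did not overlap in Nf1-KO.

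Among the receptors, Notch3 had the highest level. NOTCH3 is the receptor best known from mural cells, and it is also made by satellite cells. Notch3 (chromosome 17, 32120820 to 32166852, GRCm38) was 3.23 and 3.26 RPKM in Het and 4.32 and 4.02 RPKM in Nf1-KO. Both Nf1-KO libraries were above both Het libraries, by a wider margin than the spread within either group. The scaled level was 20.4% higher, a log2 fold change of 0.21 (standard error 0.052, limma adjusted p 0.016). The call was lost without Het replicate 1 (limma adjusted p 0.073), without Het replicate 2 (0.053) and without Nf1-KO replicate 1 (0.084), and it was missed narrowly with no filter on low values (0.051). In the authors' deposited table the change of Notch3 was 0.25 (adjusted p 0.0057). The stretch printed above is that of this gene, the only receptor that passed.

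Notch1, which like Notch2 acts in satellite cells and in many other cells, held the second receptor level. Notch1 (chromosome 2, 26457903 to 26516663) was 1.80 and 1.64 RPKM in Het and 2.13 and 1.92 RPKM in Nf1-KO. The deposited values did not overlap, but the scaled values did. Its log2 fold change was 0.09 with a 95% interval of -0.06 to 0.25 and a limma adjusted p of 0.27, so a rise of up to that size cannot be told from none.

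Notch2 was the lowest of the 10 genes. Notch2 (chromosome 3, 98013527 to 98150361) was 0.48 and 0.47 RPKM in Het and 0.70 and 0.67 RPKM in Nf1-KO. It passed the filter on low values (0.5 RPKM in 2 libraries) only through the Nf1-KO libraries, so its test is not independent of its direction. The groups were well apart in the RPKM, with a scaled level 35.1% higher in Nf1-KO. The log2 fold change of 0.16 (standard error 0.055) missed the threshold, at a limma adjusted p of 0.056. With limma fitted without a variance trend the adjusted p was 0.020, and with values as deposited 0.028. The authors' deposited table gave 0.44 and an adjusted p of 0.029, from a mean of 294 normalized counts. Of the summed RPKM of the 3 receptors, Notch3 made up 58.6% and 60.7% in Het, against 60.4% and 60.8% in Nf1-KO. The share of Notch1 was 32.7% and 30.5% in Het and 29.8% and 29.1% in Nf1-KO, and that of Notch2 was 8.71% and 8.75% against 9.79% and 10.1%. The share of Notch3 overlapped between the groups, while that of Notch1 was lower and that of Notch2 higher in both Nf1-KO libraries. The sum itself, of deposited values without scaling, was 5.51 and 5.37 RPKM in Het and 7.15 and 6.61 RPKM in Nf1-KO.

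None of the 3 ligand genes passed the test. Jag2, a ligand of the Jagged type, had the highest level of all 10 genes. Jag2 (chromosome 12, 112907819 to 112929776) was 7.99 and 7.64 RPKM in Het and 8.63 and 8.75 RPKM in Nf1-KO. Both Nf1-KO values were above both Het values, yet after scaling the log2 fold change was only 0.05 (95% interval -0.04 to 0.15, limma adjusted p 0.31). With values as deposited it was 0.14 and passed, with a limma adjusted p of 0.029.

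Dll4, the Delta-type ligand best known from arteries and sprouting vessels, was in between. Dll4 (chromosome 2, 119325784 to 119335962) was 2.51 and 2.89 RPKM in Het and 2.78 and 3.06 RPKM in Nf1-KO, and the groups overlapped. Its log2 fold change was 0.01 (95% interval -0.16 to 0.19, limma adjusted p 0.88). Jag1, the second Jagged ligand, was the lowest of the ligands. Jag1 (chromosome 2, 137081456 to 137116644) was 1.11 and 1.04 RPKM in Het and 1.07 and 1.03 RPKM in Nf1-KO. These deposited values overlapped, while the scaled values were lower in both Nf1-KO libraries. Its log2 fold change was -0.07 (95% interval -0.20 to 0.07, limma adjusted p 0.37). In the ligand sum Jag2 made up 66.0% to 68.8% in Het and 68.2% to 69.2% in Nf1-KO.

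Rbpj encodes the protein through which all Notch receptors act on DNA. Rbpj (chromosome 5, 53466152 to 53657362) was 5.91 and 5.80 RPKM in Het and 6.21 and 6.10 RPKM in Nf1-KO. The deposited values stood slightly higher in Nf1-KO and the scaled values overlapped. Its log2 fold change was -0.02 (95% interval -0.12 to 0.08, limma adjusted p 0.72), and it was 0.06 with values as deposited (limma adjusted p 0.24). The interval is narrow enough to leave room only for a change smaller than that of Hes1 or Hey1. GENCODE lists the processed pseudogenes Rbpj-ps1 and Rbpj-ps3, so the value of Rbpj is uncertain as far as reads are shared with them.

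The 3 target genes did not move together. Hes1, the most widely used Notch target and one that other signals also control, fell. Hes1 (chromosome 16, 30064384 to 30067796) was 7.54 and 7.37 RPKM in Het and 6.39 and 6.51 RPKM in Nf1-KO. Both Nf1-KO libraries were below both Het libraries, and the gap was several times the spread within a group. The scaled level fell by 19.0%, a log2 fold change of -0.27 (standard error 0.039, limma adjusted p 0.0021). The authors' deposited table gave -0.31 with an adjusted p of 0.048.

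Hey1, a target prominent in endothelial and satellite cells, rose. Hey1 (chromosome 3, 8663359 to 8667256) was 1.28 and 1.15 RPKM in Het and 2.08 and 1.78 RPKM in Nf1-KO. All Nf1-KO values were above all Het values, though the Nf1-KO libraries differed from each other more than the Het libraries did. The scaled level was 48.8% higher, a log2 fold change of 0.35 (standard error 0.071, limma adjusted p 0.0083). With no filter on low values, the limma adjusted p was 0.054. The authors' deposited table gave 0.57 with a standard error of 0.23 and an adjusted p of 0.042. That table puts Hey1 at a mean of 163 normalized counts, the fewest of the 10 genes, where counting error alone is 7.82% per library.

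Heyl, the third target and one used to mark mural as well as satellite cells, fell by the smallest amount of the 4 genes that passed. Heyl (chromosome 4, 123233556 to 123249875) was 1.96 RPKM in both Het libraries and 1.78 and 1.76 RPKM in Nf1-KO. The groups did not overlap. The log2 fold change was -0.16 (standard error 0.051, limma adjusted p 0.044). The call was lost in 7 of 13 alternative analyses, among them the omission of each single library (limma adjusted p 0.10 without Het replicate 1, 0.11 without Het replicate 2, 0.15 without Nf1-KO replicate 1 and 0.19 without Nf1-KO replicate 2). With values as deposited its log2 fold change was -0.10 with a limma adjusted p of 0.16, and with the replicate number as a block the limma adjusted p was 0.066. The authors' deposited table gave -0.25 with an adjusted p of 0.17, so it did not pass there.

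**Figure D2:**
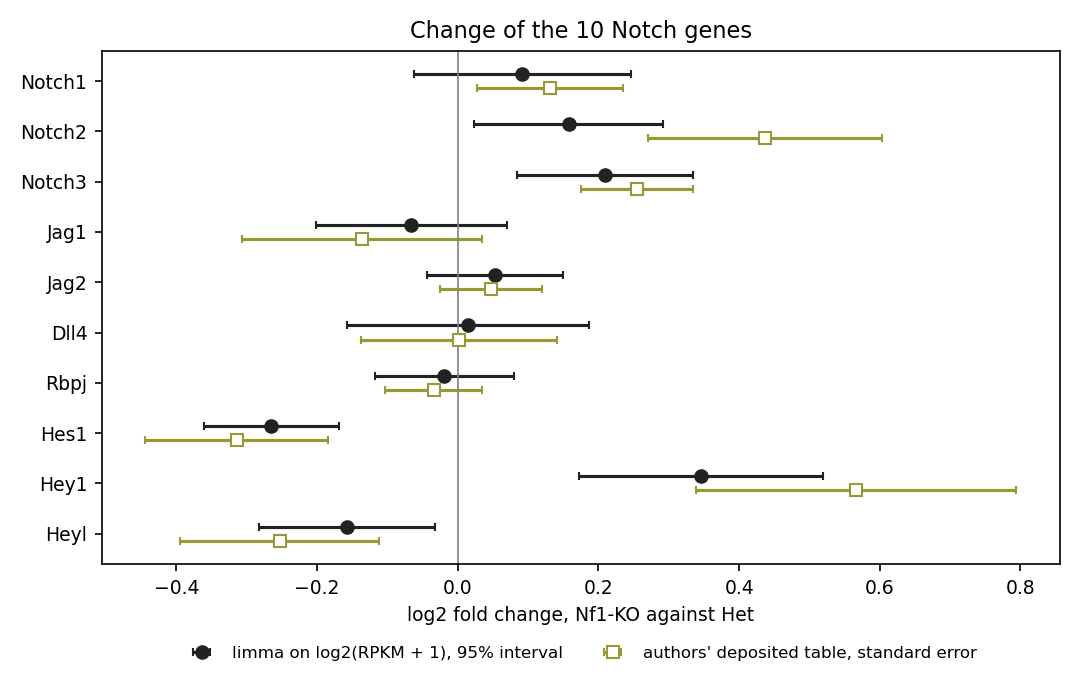
Log2 fold change of Nf1-KO against Het for the 10 genes, from limma on log2(RPKM + 1) with 95% intervals (filled circles) and from the authors' deposited table with standard errors (open squares). The signs are the same in both sources for every gene. All genes but Jag2 and Dll4 lie further from 0 in the authors' table, Hey1 and Notch2 by the widest margins.

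The authors' deposited table, which per the file headers has the layout of DESeq2 output on counts, called 4 of the 10 genes at an adjusted p under 0.05, against 31.6% of its 13985 genes. These were Notch2, Notch3 and Hey1 as higher (15.0% of its genes) and Hes1 as lower (16.6%). Notch3, Hes1 and Hey1 were called with the same sign by both. Both sources rest on the same 4 libraries. Without scaling, 4 genes passed as higher (Notch2, Notch3, Jag2 and Hey1) and 1 as lower (Hes1), and of all calls 66.6% were then higher, against 49.5% with scaling. The median log2 fold change of all genes tested was 0.07 without scaling, so the main values are relative to that shift.

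Ratios between genes within a library do not depend on the scaling between libraries. The ratio of Hey1 to Heyl was 0.653 and 0.587 in Het, against 1.17 and 1.01 in Nf1-KO. Hey1 went from below Heyl in both Het libraries to slightly above it in both Nf1-KO libraries. The ratio of Hes1 to Hey1 was 5.89 and 6.41 in Het and 3.07 and 3.66 in Nf1-KO. That of Hes1 to Heyl was 3.85 and 3.76 against 3.59 and 3.70, groups that lay close to each other without overlap. Hes1 made up 69.9% and 70.3% of the summed RPKM of the 3 targets in Het and 62.3% and 64.8% in Nf1-KO. The sum of the targets was 10.8 and 10.5 RPKM in Het and 10.3 and 10.1 RPKM in Nf1-KO, while the sum of the receptors was higher in both Nf1-KO libraries. These sums are of deposited values and, unlike the ratios, depend on the scaling. The ratio of Notch3 to Heyl was 1.65 and 1.66 in Het and 2.43 and 2.28 in Nf1-KO. The smallest p that an exact permutation test of such a ratio can give in this design is 0.333, so the ratios are descriptions.

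**Figure D3:**
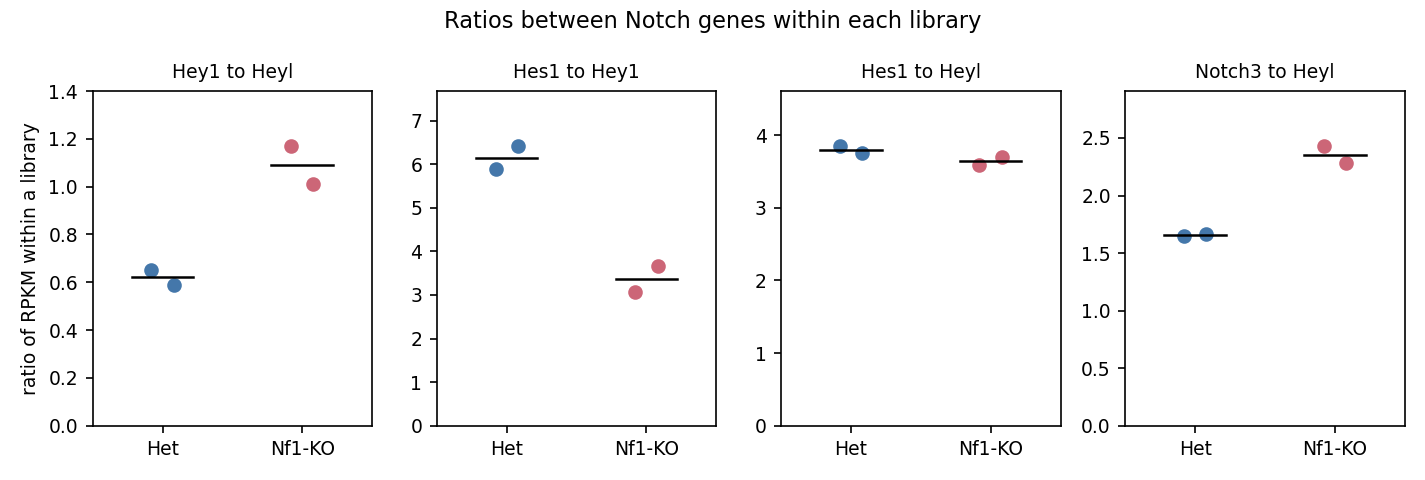
Ratios of RPKM between pairs of Notch genes within each library, on linear axes that start at 0, with 1 point per library and a line at the group mean. Hey1 relative to Heyl was 0.587 to 0.653 in Het and 1.01 to 1.17 in Nf1-KO, and Notch3 relative to Heyl was also higher in both Nf1-KO libraries.

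A further 52 genes of the pathway, listed by role, were read from the same files. Of the 39 that passed the filter, 8 were higher and 9 lower, or 43.6% against the 50.3% of all genes, with a median log2 fold change of -0.05. Without Het replicate 1 the number passing was 10, and without Nf1-KO replicate 1 it was 11. The other 13 were at most 0.27 RPKM in any library and were not tested. Notch4, the receptor of endothelial cells, and Dll3 were listed at 0 in all 4 libraries. Of the 34682 rows of the files, 15497 are listed at 0 in all 4 libraries, so this is a listed value only.

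Of 11 tested ubiquitin ligases and adaptors of endocytosis and turnover, 4 fell (Mib1, Neurl1a, Dtx3 and Fbxw7) and the other 7 did not pass. Over all genes tested, 25.4% were called lower. The authors' deposited table did not call Dtx3 (adjusted p 0.087) or Fbxw7 (0.072), and the RPKM of Dtx3 overlapped between the groups before scaling. Mib1 stood furthest from 0 of the 39 genes. It encodes the ubiquitin ligase that lets a ligand-bearing cell pull ligand and bound receptor inward, a step without which Delta and Jagged ligands do not signal well. Mib1 was 5.57 and 5.24 RPKM in Het and 3.51 and 3.25 RPKM in Nf1-KO. The Nf1-KO level was far below both Het libraries, with a log2 fold change of -0.62 (standard error 0.054, limma adjusted p 2.1e-04), and it passed as lower in all 13 alternative analyses. The authors' deposited table gave -0.78 for Mib1 with an adjusted p of 7.1e-21. The related ligase gene Mib2 was 3.32 and 3.58 RPKM in Het and 4.25 and 4.10 RPKM in Nf1-KO, and with a limma adjusted p of 0.064 it did not pass. Mib2, and the genes Psenen, Ncstn and Aph1a of gamma-secretase below, were singled out after their values were seen.

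All 6 tested genes of receptor cleavage described here passed, 4 lower and 2 higher, where 50.3% of all genes passed. Of these 6, the authors' deposited table called Adam10, Adam17 and Aph1a. Adam10, the protease that makes the first, ligand-dependent cut, fell from 5.10 and 5.43 RPKM to 4.55 and 4.50 RPKM (log2 fold change -0.26, limma adjusted p 0.0053). The subunits of gamma-secretase, the protease of the second cut, went both ways. Psen2, a catalytic subunit, was 2.09 and 1.99 RPKM in Het and 1.57 and 1.80 RPKM in Nf1-KO. Both Nf1-KO libraries were below both Het libraries, with a log2 fold change of -0.24 (limma adjusted p 0.020). The call was lost without Het replicate 1 (limma adjusted p 0.084), without Nf1-KO replicate 1 (0.12), with no filter (0.078) and with values as deposited (0.055). The authors' deposited table gave Psen2 an adjusted p of 0.075. Psenen, a subunit needed for activation of the complex, had a log2 fold change of -0.14. The scaffold subunits Ncstn and Aph1a had 0.16 and 0.16. In the authors' deposited table, Ncstn and Psenen did not pass, at adjusted p values of 0.099 and 0.11. Exons of Adam17, Aph1a, Ncstn and Psenen overlap those of genes on the other strand, and the use of strand in counting is not given in the sources used here.

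Coactivators and corepressors that join RBPJ also went both ways. The histone acetyltransferase gene Ep300 was 6.75 and 6.73 RPKM in Het and 5.52 and 5.61 RPKM in Nf1-KO, a log2 fold change of -0.32. Maml1, the Mastermind coactivator that locks the receptor fragment onto RBPJ, rose from 1.42 and 1.40 RPKM to 2.01 and 2.13 RPKM, a log2 fold change of 0.29. Snw1, an RBPJ-binding and splicing factor whose exons overlap those of Slirp, rose by 0.28. Of the 7 coactivator genes, 3 passed as higher and 1 as lower, a share near the 50.3% of all genes. Of the 6 corepressor genes described here that were tested, the Groucho-type gene Tle4 rose by 0.19 on the log2 scale, and the other 5 did not pass. The Tle4 call was lost without Het replicate 1 (limma adjusted p 0.079) and without Nf1-KO replicate 2 (0.075).

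Among further ligands, Dll1 had 1.05 and 0.90 RPKM in Het and 0.81 and 0.82 RPKM in Nf1-KO, a log2 fold change of -0.17 that did not pass (limma adjusted p 0.069; it passed at 0.045 without Het replicate 2, and at 0.046 with limma fitted without a variance trend). Egfl7, a secreted protein of endothelial cells that can bind Notch receptors, rose from 11.7 and 12.3 RPKM to 16.6 and 16.2 RPKM, a log2 fold change of 0.34. Its exons overlap those of Agpat2 and other genes. Further targets and relatives were low or did not pass. Nrarp, a direct target that feeds back on the receptor, was 2.0 and 2.01 RPKM in Het and 1.88 and 2.02 RPKM in Nf1-KO (log2 fold change -0.09, limma adjusted p 0.22). Hes6, which counteracts HES1, was 2.96 and 2.84 against 3.99 and 3.18 RPKM (log2 fold change 0.16, limma adjusted p 0.19). It passed only without Nf1-KO replicate 2, at 0.29 and a limma adjusted p of 0.012, and was 0.03 without Nf1-KO replicate 1 (0.75). Hey2 was 0.16 to 0.25 RPKM, Hes5 was 0.09 and 0.11 RPKM in Het and 0.27 and 0.21 RPKM in Nf1-KO, and Hes7 was at most 0.02 RPKM, and none of these could be tested.

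**Figure D4:**
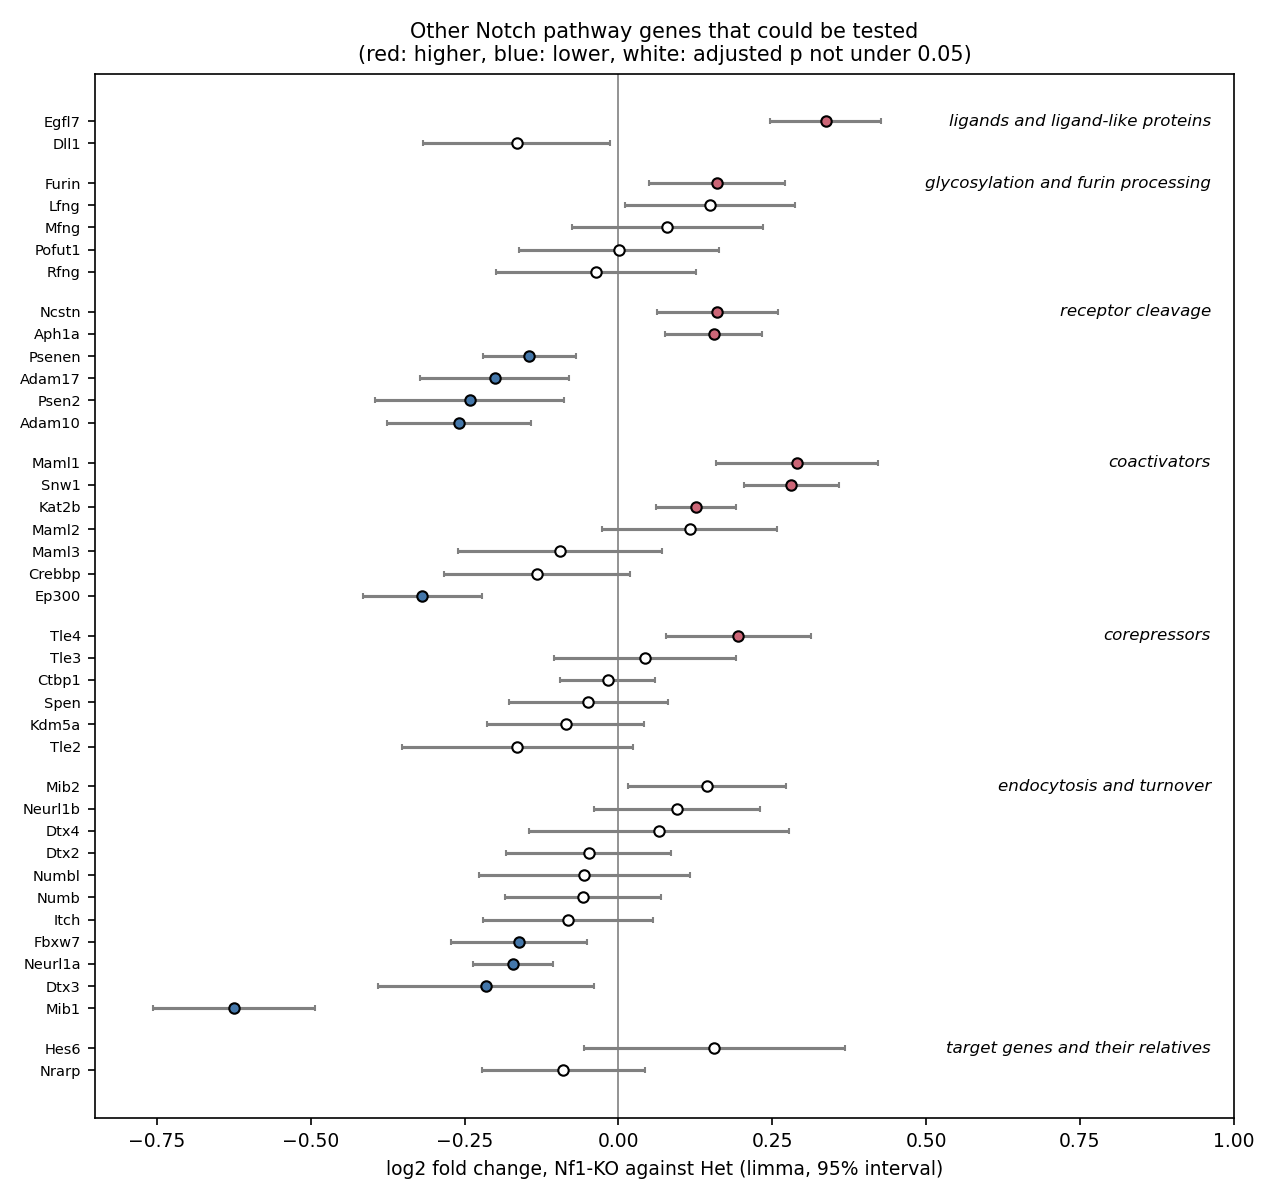
Log2 fold change of Nf1-KO against Het with 95% limma intervals for the 39 other Notch pathway genes that could be tested, grouped by role. Mib1 lies at -0.62, and the genes of receptor cleavage lie on both sides of 0.

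Markers of the cells that carry these genes were read beside them. Over all genes tested 50.3% passed, 24.9% as higher and 25.4% as lower. The shares of the satellite, mural, endothelial and arterial lists that passed were 40.0%, 55.6%, 58.3% and 40.0%, near that background. Of 10 tested satellite cell markers, 4 passed as higher (Vcam1, Chrdl2, Spry1 and Fgfr4) and 6 did not pass. Chrdl2 and Fgfr4 passed the filter on low values only through the Nf1-KO libraries, so their tests are not independent of their direction. Sums here and below are of deposited values, which run higher in Nf1-KO (median log2 fold change of all genes tested 0.07 without scaling). The summed RPKM of all 13 was 40.9 and 39.3 in Het and 48.2 and 46.8 in Nf1-KO. Most of that sum was Spry1, Myod1, Cdh15 and Sdc4, and Spry1 and Myod1 differed most between the groups within it. Pax7, the defining marker, was 0.52 and 0.54 RPKM in Het and 0.68 and 0.79 RPKM in Nf1-KO, with a limma adjusted p of 0.093. Of 9 tested mural cell markers, 2 passed as higher and 3 as lower, with a sum of 136 and 138 RPKM in Het and 156 and 155 RPKM in Nf1-KO. Within that sum Rgs5 went from 52.5 and 54.2 RPKM in Het to 70.6 and 71.2 RPKM in Nf1-KO, nearly the whole difference between the sums. Acta2 also rose, while Abcc9, Mcam and Tagln fell. Of 12 endothelial markers, 5 passed as higher and 2 as lower, with sums of 123 and 124 RPKM in Het and 137 and 135 RPKM in Nf1-KO. Of 5 arterial markers, Efnb2 passed as higher and Unc5b as lower. The arterial sum was 9.41 and 9.27 RPKM in Het and 11.4 and 10.5 RPKM in Nf1-KO.

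Markers of other cell types were read in the same way, again beside 24.9% of all genes tested that passed as higher and 25.4% as lower. All 7 tested fibroblast markers passed as higher, with sums of 94.7 and 92.8 RPKM in Het and 146 and 147 RPKM in Nf1-KO. So did 6 of 8 macrophage markers (sums of 17.5 and 17.0 against 39.8 and 40.2 RPKM, with Adgre1 listed at 0 throughout) and all 5 tested Schwann cell markers described here (15.1 and 15.6 against 34.6 and 33.1 RPKM). Cd68 among the macrophage markers and S100b and Sox10 among the Schwann cell markers likewise passed the filter only through the Nf1-KO libraries. Of 9 myofibre markers 8 passed as lower and Mb as higher, with sums of 65148 and 65037 RPKM in Het, against 54632 and 54627 RPKM in Nf1-KO. By these markers the tissue was muscle in all libraries. The part of these markers in the changes of Notch3, Hey1, Hes1 and Heyl was not tested. The collagen genes known as Notch targets of satellite cells, which fibroblasts also express, held Col5a1 as higher (log2 fold change 0.42, limma adjusted p 0.0022), while Col5a3, Col6a1 and Col6a2 did not pass.

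Exons of Notch1, Notch2, Notch3 and Dll4 overlap those of other annotated genes in GENCODE (0610009E02Rik and Gm13568, Gm42820, Gm17276, and Gm14207). Reads of such pairs may be mixed. Exons of Jag1, Jag2, Hes1, Hey1, Heyl and Rbpj overlap those of no other gene there.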

How the data were processed

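Of the 4 RNA libraries, 2 came from Het and 2 from Nf1-KO muscle. Per the labels' protocols, frozen muscle was used for column RNA isolation and TruSeq libraries. The submitters' processing notes name STAR 2.4.2a, DESeq2 and the build mm9, with no role. The counting program, annotation and strand are not given in the sources used here. The authors normalized reads to gene length and library depth before they deposited RPKM values, as read from the values themselves, since the file headers name no unit and the values are not whole and sum to 532315 to 547144 per library. The authors also deposited a comparison table that holds, per the file headers, a mean of normalized counts (a signal value), a log2 fold change, a test score, and p-values. Its direction was read from the libraries' own values.

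Rows whose name is a number (33 of 34682) were left out, and where rows are marked as copies of a name (1781 rows) only the copy of the highest mean was used. Scaling factors were trimmed means of log ratios to the mean library, without the outer 30% of ratios and 5% of abundances on either side. Genes with at least 0.5 RPKM in 2 libraries were tested by limma 3.58.1 (R 4.3.3), two-sided, using log2(RPKM + 1) and a variance trend, with Benjamini-Hochberg adjustment across 10690 genes. The scripts were tested on simulated data. Depth was estimated from values of up to 12 reads in genes with 1 transcript under 400 bases. Since the lengths are those of GENCODE M21 (GRCm38), these depths are estimates, and no intervals from counting are given. Genes and lists were chosen with earlier results of these data known. All 10 genes are described. Of the other pathway genes, a rule named the 4 that passed with the widest changes in each direction and the paralogs of members. Mib2, Neurl1a, Dtx3, Fbxw7, Adam17, Psenen, Ncstn, Aph1a and Nrarp are named outside that rule. Some pathway and marker genes are not reported here. The alternatives changed the scaling, pseudocount, filter, variance model, copies and block, and left out each library. The labels give no batch.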

Additional observations from a re-analysis of the deposited data

How the results depend on the processing

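Over 13 alternative analyses, 275 of 321 values did not change sign or cross the threshold, or, for counts, stayed within 1.5 times. Hes1 passed as lower in all 13 and Hey1 as higher in 12, the exception being the analysis with no filter (0.35, limma adjusted p 0.054). Over the alternatives the limma adjusted p ran from 0.0050 to 0.084 for Notch3, 0.019 to 0.19 for Heyl and 0.020 to 0.13 for Notch2. With no filter, which tests 18959 genes and calls 23.9% of them, 1 Notch gene passed (1 lower, 0 higher by limma, with 3 higher and 2 lower at an unadjusted p under 0.05), where the authors' deposited table called 4. With values as deposited, 4 genes passed as higher and 1 as lower, and Rbpj turned to 0.0618. When each library was left out in turn, 2 to 3 Notch genes passed (1 to 2 higher, 1 lower), as did 10 to 16 of the other pathway genes. Fewer samples then stand behind the fit, and the lone library is assumed to vary like the other group. Dll4 then ran from -0.0664 (without Het replicate 1) to 0.0866, with -0.0282 without Nf1-KO replicate 2, and Rbpj from -0.0346 to 0.0014 (without Nf1-KO replicate 2). Notch2 was below a filter of 1 RPKM in each library and could not be tested there, nor without either Nf1-KO library. With the replicate number as a block, 1 gene passed as lower, because Heyl was lost. Libraries with the same number did not deviate together (correlation -0.018 over 10690 genes), so no large shared shift is seen. With 2 libraries per group this check cannot exclude that the numbers pair them. The cause of these shifts was not tested. Depth limits Hey1 and Jag1 most, by the authors' mean normalized counts. No rule for a closer look was applied to any result, since groups of 2 libraries are too small for it.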
